A study of Homo sapiens with 6 samples.

Results

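The genes described here are 36 nuclear genes whose products copy, transcribe, process, stabilize and translate the mitochondrial genome. They were taken by symbol from the gene counts of an RNA-sequencing experiment in HEK293 cells, a human embryonic kidney line, and make up 36 of its 57773 gene rows. The rule that names them uses no measured values. Cells were transiently transfected with plasmids that express Cas9 and a puromycin resistance gene, either as empty vector control (EV) or with 4 guides against the zinc finger genes ZNF146 (sgZNF146) or ZNF507 (sgZNF507), selected with puromycin for 36 h and harvested on day 14. Each of the 3 groups had 2 libraries, named replicates 1 and 2 and said to be biological duplicates. Cas9, the vector and puromycin were common to all groups, and the cells were transfected pools, not clones.

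Mitochondrial DNA is transcribed from both strands into long precursors by POLRMT, a single-subunit RNA polymerase that starts with the DNA-binding protein TFAM and the factor TFB2M and is made processive by TEFM. Transfer RNAs that lie between the coding genes are cut out at both ends, which frees the mRNAs, and these are then bound, polyadenylated and degraded by proteins that are all imported from the cytosol. Mitochondrial ribosomes translate them with their own initiation and elongation factors. The nuclear genes for this machinery are known targets of the transcription factors NRF1 and GABPA.

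The 6 libraries held 22724439 to 28524025 counts. HEK293 genes were present in every library, with 139 to 191 counts for PAX2, 2095 to 2681 for LIN28B and 1669 to 2143 for NEFM. Of markers of other cell types, PTPRC, ALB and CD3E stood at 0 to 6 counts, whereas the collagen genes COL1A1 and COL3A1 were counted in all libraries at 1495 to 1933 and 143 to 247. ZNF507 was at 71.99 and 75.5 CPM (counts per 1000000 of the library size after TMM adjustment) in EV and at 47.2 and 48.7 in sgZNF507. This is -0.62 ± 0.07 on the log2 scale (SE, n = 2 against 2), with an adjusted p of 0.00195 in edgeR's quasi-likelihood test. ZNF146 was at 114.9 and 105.4 CPM in EV and at 99.2 and 102.7 in sgZNF146, a log2 fold change of -0.13 with an adjusted p of 1.00, so that its transcript level does not check the label of that group. Nor was the lower level particular to that group. In sgZNF507, whose guides target another gene, ZNF146 was at 88.4 and 101.4 CPM, with both libraries below EV. The log2 fold change of ZNF146 against EV was -0.21 there. Its unadjusted p in edgeR's quasi-likelihood test was 0.0162 in sgZNF507 and 0.126 in sgZNF146, and neither passed after adjustment. The ZNF146 levels of sgZNF146 and sgZNF507 overlapped. A transcript that carries an indel can still be counted. The study also checked both disruptions by western blot and by indels in the reads, which were not analysed here.

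Motifs of both regulators were searched in the promoters of the 36 genes, since NRF1 and GABPA are themselves among them and were measured in the same libraries. RefSeq promoter sequences (GRCh38.p14, 250 bases before to 50 after the gene start) were at hand for 33 of the genes, and not for MTERF3, FASTKD5 and NRF1. For both motifs a gene counted if any of its promoter sequences matched, whereas the shares over all promoters count single sequences. On either strand the NRF1 motif, GCGCA followed by any base and by GCGC, was found in 5 of the 33 (15.2%), which are TFAM, POLRMT, TFB1M, POLG2 and REXO2, and in 5.78% of 35116 promoters (7.39% of 22199 protein-coding ones). In the windows of 30 bases below, written 5′ to 3′ on the strand of the gene, capitals mark the motif or its reverse complement.
TFAM, chr10:60145097-60145126, plus strand: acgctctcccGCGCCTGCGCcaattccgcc
TFB1M, chr6:155635731-155635760, minus strand: gcaggacttaGCGCATGCGCtctcagcacg
POLRMT, chr19:633542-633571, minus strand: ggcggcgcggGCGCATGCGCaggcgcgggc
POLG2, chr17:62493167-62493196, minus strand: cacctccgttGCGCCTGCGCcgtggcctct
REXO2, chr11:114310186-114310215, plus strand: agcgactattGCGCCTGCGCcagcgccggc
The coordinates are those of the single exact match of each window on its chromosome in GRCh37, the build of the counts. POLRMT held a second match that overlaps the one shown by 4 bases.

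The ETS motif CCGGAAGT, which GABPA binds, was found in 10 of the 33 promoters (30.3%) and in 4.14% of all promoters (5.34% of protein-coding ones). The 10 were ELAC2, GABPA, GFM1, MTERF1, MTERF4, PDE12, POLRMT, TEFM, TRMT10C and TUFM, of which PDE12 held it at 2 places. The windows of the genes of transcription and of translation among them, with those of TRMT10C and of GABPA itself, were the following.
POLRMT, chr19:633613-633642, minus strand: cctgggagtctACTTCCGGctggggtttcc
TEFM, chr17:29233244-29233273, minus strand: gcacgcaggaaCCGGAAGTcaatggaggaa
MTERF1, chr7:91510048-91510077, minus strand: gcgacccgaggCCGGAAGTtagtcttttcc
MTERF4, chr2:242041737-242041766, minus strand: cggaccgggggCCGGAAGTgaaggacgggg
TRMT10C, chr3:101280672-101280701, plus strand: gagagggcggaACTTCCGGctgagccccag
GFM1, chr3:158362297-158362326, plus strand: cgtcctttgccCCGGAAGTgctcttacaac
TUFM, chr16:28857659-28857688, minus strand: tctaacttccgCCGGAAGTgccttccagcc
GABPA, chr21:27107205-27107234, plus strand: acctccgctctACTTCCGGccctggctccg
POLRMT was the 1 gene with both motifs. A match describes these letters in this window and was not tested as a binding site.

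All 36 genes were expressed in HEK293 cells and passed the filter on low counts, with 98 (TFB2M) to 9622 (TUFM) counts per library. Levels are compared between genes as CPM per kilobase of the canonical transcript. The highest levels in EV were those of TUFM, the mitochondrial elongation factor that carries aminoacyl-tRNAs to the ribosome, at 170.1 ± 1.68 CPM per kb (SD, n = 2), of SLIRP, the RNA-binding partner of LRPPRC, at 132.9 ± 8.92, and of HSD17B10, a dehydrogenase that is also a subunit of mitochondrial RNase P, at 117.2 ± 2.48. TBRG4 followed at 60.8 ± 2.19, then the coactivator gene PPRC1 at 52.9 ± 1.99 and the mtDNA polymerase gene POLG at 47.3 ± 0.61. Each of these 6 genes lay apart from the next one down in both EV libraries except POLG, whose libraries overlapped those of ELAC2 (47.2 ± 0.85).

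The transcription genes ranged from rank 9 down to the lowest level of the 36. POLRMT stood at rank 9 with 38.7 ± 0.86 CPM per kb in EV and TFAM at rank 15 with 20.3 ± 0.45, whereas TEFM was at 10.7 ± 0.12, TFB1M at 5.98 ± 0.19, MTERF1 at 3.01 ± 0.44 and TFB2M, the lowest of the 36, at 2.85 ± 0.11. MTERF1 and TFB2M overlapped between EV libraries. In the whole order, 14 of the 35 pairs of neighbours overlapped. Both order and level depend on the transcript length used. Per kilobase of all annotated exons SLIRP stood at rank 10 in place of 2, LRPPRC at 25 in place of 11 and MTERF4 at 28 in place of 10.

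**Figure D1:**
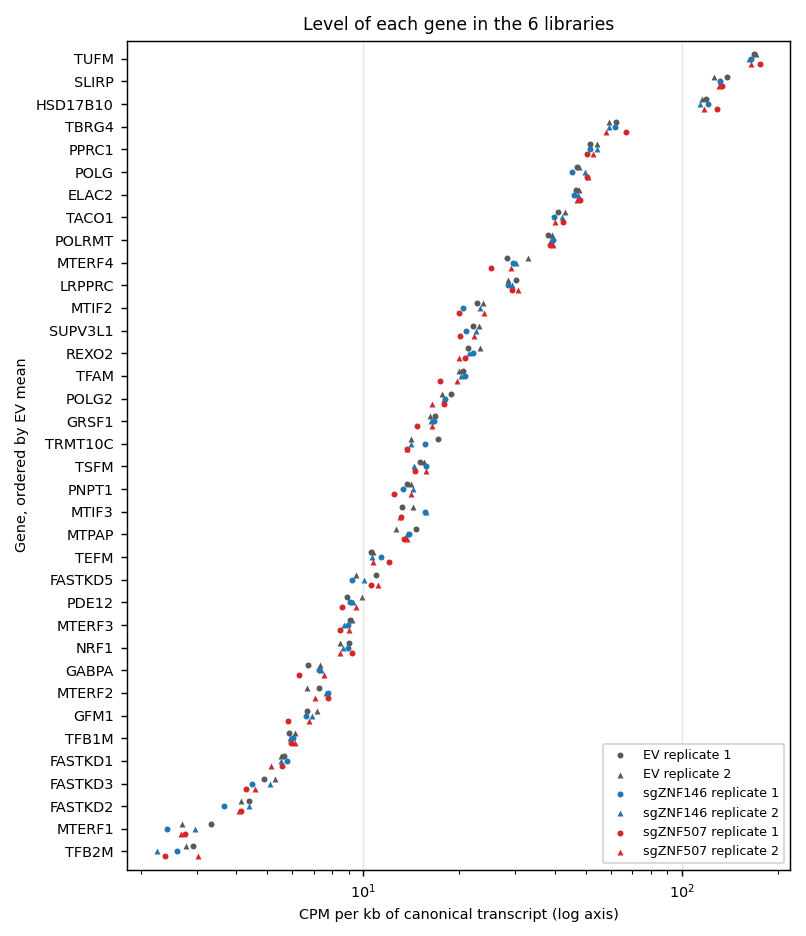
Level of each of the 36 genes in the 6 libraries, as CPM per kb of canonical transcript on a log axis, with genes ordered by their EV mean, colours for the groups and circles and triangles for replicates 1 and 2. Levels run from 2.85 (TFB2M) to 170.1 (TUFM) CPM per kb in EV, and the 6 points of a gene lie close together in comparison.

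The first comparison asks whether loss of ZNF507 altered the RNA of these genes. None of the 36 passed an adjusted p of 0.05 in edgeR's quasi-likelihood test, fitted over all 22010 genes tested, where 0.182% of genes (40) were called. At an unadjusted p under 0.05 the members numbered 0, beside 3.39% of all genes. DESeq2 on the same 6 libraries called 0 members as well. The share of all genes that DESeq2 called is not given here for any comparison. With the replicate number as a block, which calls 0.55% of all genes (121), the members called were again 0, and the smallest adjusted p was 0.474 (MTERF4). In that fit 3 members (TFAM, MTERF4 and TRMT10C) had an unadjusted p under 0.05, beside 7.66% of all genes. Log2 fold changes of the 36 ran from -0.19 to 0.10 with a median of -0.05, beside a median of -0.00 over all genes tested. Of the 36, 24 were negative and 12 positive, beside 11236 negative and 10774 positive over all genes tested. Both sgZNF507 libraries lay below both EV libraries in 7 genes (19.4%, against 15.3% of all genes tested) and above them in 1 (2.78%, against 14% of all genes). The precision of this null can be read from the 95% intervals, which come from the fit without the block. All 36 lay within a 1.5-fold change in either direction and 18 within a 1.2-fold change, and all 36 held 0.

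The second comparison asks the same of ZNF146. No member passed the threshold in sgZNF146 against EV, as was true of 0% of all genes, and no member had an unadjusted p under 0.05 (2.43% of all genes did). The block called 0.15% of all genes (33) and 0 members, with a smallest adjusted p of 0.957 (MTIF3), and DESeq2 called 0. At an unadjusted p under 0.05 the block gave 0 members and 5.44% of all genes. Log2 fold changes ran from -0.23 to 0.19 with a median of -0.02, again with 24 negative and 12 positive. Over all genes tested 11112 were negative and 10898 positive. Libraries did not overlap in 3 genes lower (8.33%, against 14.6% of all genes) and 2 higher (5.56%, against 14%). The intervals of 35 genes lay within a 1.5-fold change and of 24 within a 1.2-fold change, and that of TFB2M, the least counted gene, reached -0.61. Both comparisons share the EV libraries, so that a deviation of those libraries enters both.

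Set directly against each other, sgZNF507 and sgZNF146 did not differ past the threshold in any of the 36 genes, beside 0.173% of all genes called (38). At an unadjusted p under 0.05 there was 1 member (MTIF3), beside 4.03% of all genes. The block called 0.891% of all genes (196) and 0 members, with a smallest adjusted p of 0.304 (TFAM), and DESeq2 called 0. At an unadjusted p under 0.05 the block gave 4 members (TFAM, MTERF4, FASTKD5 and MTIF3) and 8.68% of all genes. Log2 fold changes ran from -0.26 to 0.17 with a median of -0.01. Both sgZNF507 libraries lay below both sgZNF146 libraries in 7 genes (19.4%, against 16.5% of all genes) and above in 4 (11.1%, against 15.5%). The 36 intervals lay within a 1.5-fold change, 21 of them within a 1.2-fold change, and 35 held 0.

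**Figure D2:**
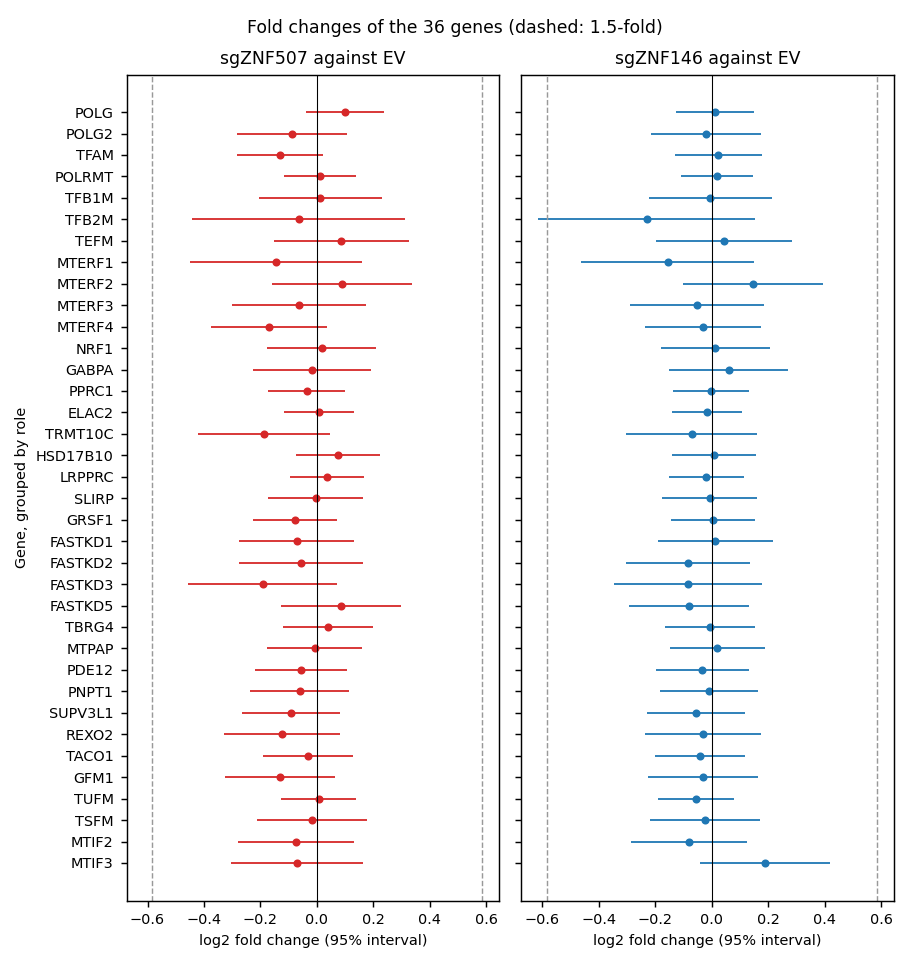
Log2 fold change of each of the 36 genes with its 95% interval, for sgZNF507 against EV (left, red) and sgZNF146 against EV (right, blue), grouped by role, with dashed lines at a 1.5-fold change. Every interval in both panels crosses 0, and 1 of them, that of TFB2M in sgZNF146, passes a dashed line.

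The DNA polymerase of mitochondria consists of the catalytic subunit POLG and the accessory subunit POLG2. POLG (ENSG00000140521, chr15:89848429-89878092 of GRCh37) was at 209.0 and 212.9 CPM in EV, 202.5 and 222.6 in sgZNF146 and 224.6 and 227.5 in sgZNF507. Both sgZNF507 libraries were above all others, but the log2 fold change against EV was 0.10 ± 0.06 (SE), the highest of the 36 in that comparison, with an adjusted p of 1.00 in edgeR's quasi-likelihood test. Against sgZNF146 it was 0.09 ± 0.06. POLG2 ranged from 26.0 to 29.8 CPM over the 6 libraries, with a log2 fold change of -0.09 in sgZNF507 and -0.02 in sgZNF146.

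TFAM both packages mitochondrial DNA and starts its transcription. TFAM (ENSG00000108064, chr10:60145105-60158980) was at 103.7 and 100.5 CPM in EV, 105.2 and 102.3 in sgZNF146 and 87.6 and 98.8 in sgZNF507. The sgZNF507 libraries were the lowest, replicate 1 clearly and replicate 2 by less than the gap between the EV libraries. The log2 fold change was -0.13 ± 0.07 (95% interval -0.28 to 0.02) against EV and -0.15 ± 0.07 (-0.31 to 0.00) against sgZNF146, each with an adjusted p of 1.00 in edgeR's quasi-likelihood test. With the replicate block the adjusted p was 0.553 and 0.304 in edgeR's quasi-likelihood test. Against EV the log2 fold change was -0.05 without sgZNF507 replicate 1 and -0.21 without its replicate 2, so that 1 library sets most of its size. In sgZNF146 the log2 fold change of TFAM was 0.02 ± 0.07.

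POLRMT (ENSG00000099821, chr19:617221-633537) was among the steadiest of the genes, at 143.6 and 148.2 CPM in EV, 148.8 and 146.8 in sgZNF146 and 145.2 and 148.5 in sgZNF507. All 6 values fell between those of the first and the third library named, and the groups overlapped throughout. Its log2 fold change was 0.01 ± 0.06 in sgZNF507 and 0.02 ± 0.06 in sgZNF146, and a pseudogene of it, POLRMTP1, took only 27 to 44 counts. TFB1M (ENSG00000029639), an rRNA methyltransferase of the mitochondrial small ribosomal subunit, was at 16.4 and 17.1 CPM in EV, 16.8 and 16.5 in sgZNF146 and 16.6 and 17.1 in sgZNF507.

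TFB2M, the initiation factor that opens the promoter, and the elongation factor TEFM were the less precise of the core. TFB2M (ENSG00000162851, chr1:246703863-246729563) was at 5.22 and 4.96 CPM in EV, 4.65 and 4.01 in sgZNF146 and 4.25 and 5.42 in sgZNF507. Both sgZNF146 libraries were below EV, whereas the sgZNF507 libraries stood on either side of it. The log2 fold change was -0.23 ± 0.18 (95% interval -0.61 to 0.15) in sgZNF146, the lowest of the 36 there, and -0.06 ± 0.17 in sgZNF507, and 0.17 ± 0.18 between the disruptions, the highest of the 36 in that comparison, all with an adjusted p of 1.00 in edgeR's quasi-likelihood test. TEFM (ENSG00000172171) was at 13.9 and 14.1 CPM in EV, 14.9 and 13.9 in sgZNF146 and 15.7 and 14.02 in sgZNF507. Only replicate 1 of each disruption was above EV, with log2 fold changes of 0.04 ± 0.11 and 0.09 ± 0.11.

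The 4 MTERF genes code for a family of nucleic acid-binding proteins of mitochondria, of which MTERF1 was described as a transcription terminator and MTERF4 acts in ribosome assembly. MTERF4 was at 44.8 and 52.2 CPM in EV, 47.0 and 48.1 in sgZNF146 and 40.1 and 46.2 in sgZNF507. Against EV the sgZNF507 libraries overlapped, with a log2 fold change of -0.17 ± 0.09, and against sgZNF146 (-0.14 ± 0.10) both were lower. The value against EV ranged from -0.06 without EV replicate 2 and -0.07 without sgZNF507 replicate 1 to -0.27 without EV replicate 1. The exons of MTERF4 overlap those of SNED1 on the other strand by 5071 bases. MTERF1 was at 13.1 and 10.6 CPM in EV, 9.58 and 11.7 in sgZNF146 and 10.9 and 10.6 in sgZNF507. The 2 EV libraries were farther apart than any pair of group means, and the log2 fold change of -0.14 ± 0.14 in sgZNF507 rested on EV replicate 1. That of -0.16 ± 0.14 in sgZNF146 rested on EV replicate 1 and on sgZNF146 replicate 1. Against the EV mean, replicates 1 and 2 of sgZNF146 stood at -0.31 and -0.02 on the log2 scale.

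MTERF2 was 1 of 3 members, with FASTKD3 and MTIF3, whose 3 group means spread more than any pair of replicates. It was at 12.9 and 11.9 CPM in EV, 13.8 and 13.6 in sgZNF146 and 13.8 and 12.6 in sgZNF507. Both sgZNF146 libraries were above EV (log2 fold change 0.15 ± 0.11), and those of sgZNF507 overlapped it (0.09 ± 0.11). MTERF3 was between 12.4 and 13.5 CPM in all libraries and had log2 fold changes of -0.06 and -0.05, with both libraries of each disruption below EV.

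**Figure D3:**
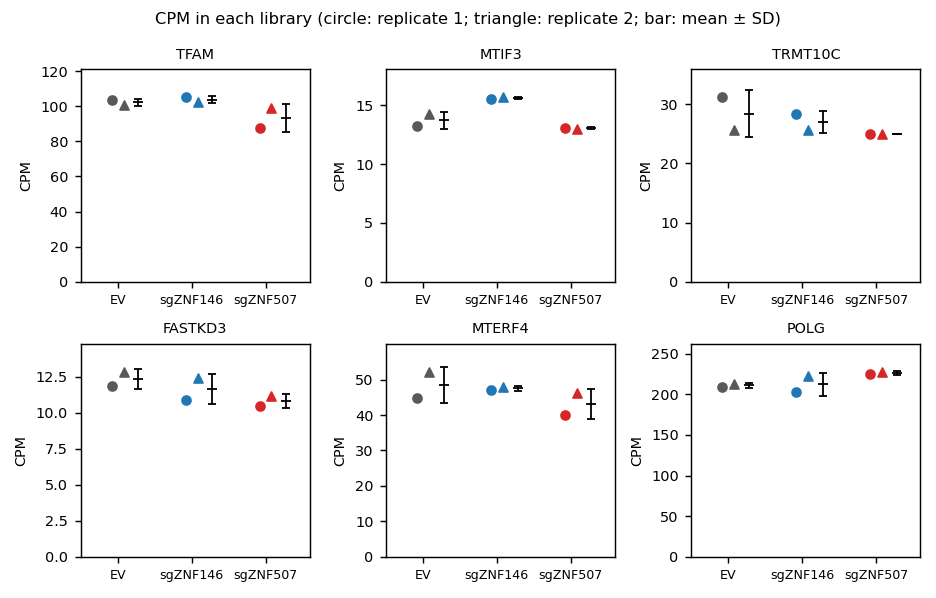
CPM of TFAM, MTIF3, TRMT10C, FASTKD3, MTERF4 and POLG in each library, on axes that start at 0, with circles and triangles for replicates 1 and 2 and black bars for the group mean ± SD (n = 2). TFAM replicate 1 of sgZNF507 is at 87.6 CPM, below the other 5 libraries at 98.8 to 105.2, and MTIF3 is highest in sgZNF146, at 15.6 and 15.7 CPM.

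The regulators of these genes were level as well. NRF1 ranged from 29.7 to 32.5 CPM over the 6 libraries, with log2 fold changes of 0.02 ± 0.09 in sgZNF507 and 0.01 ± 0.09 in sgZNF146. GABPA (ENSG00000154727) was at 35.1 and 38.3 CPM in EV, 37.9 and 38.6 in sgZNF146 and 33.0 and 39.3 in sgZNF507, so that the sgZNF507 libraries held both its lowest and its highest value. The log2 fold change was 0.06 ± 0.10 in sgZNF146, the third highest of the 36 there, and -0.02 ± 0.10 in sgZNF507. PPRC1, a coactivator that binds NRF1, was at 269.7 to 289.3 CPM, with log2 fold changes of -0.04 ± 0.06 and -0.00 ± 0.06. For GABPA and NRF1 the interval against EV reached at most 0.27 in either direction in both disruptions.

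Transfer RNAs are cut at the 5′ end by RNase P, of which TRMT10C and HSD17B10 are subunits, and at the 3′ end by ELAC2. TRMT10C (ENSG00000174173, chr3:101280712-101285290) was at 31.2 and 25.6 CPM in EV, 28.4 and 25.6 in sgZNF146 and 24.9 and 24.9 in sgZNF507. Its EV libraries differed by more than EV replicate 2 differed from sgZNF507, and the log2 fold change of -0.19 ± 0.11 (adjusted p of 1.00 in edgeR's quasi-likelihood test) therefore turned on EV replicate 1, without which it was -0.03. HSD17B10 was at 109.2 to 123.3 CPM and ELAC2 at 173.6 to 180.4 CPM over the 6 libraries, with log2 fold changes in sgZNF507 of 0.07 ± 0.07 and 0.01 ± 0.06. ELAC2 had the smallest standard error of the 36 genes in sgZNF507 against EV, with an interval from -0.12 to 0.13.

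Stability and translation of mitochondrial mRNAs depend on the LRPPRC and SLIRP complex, and RNA granules hold GRSF1 and proteins of the FASTK family. LRPPRC was at 187.7 to 202.5 CPM and SLIRP at 47.6 to 52.3 CPM over all libraries. Their log2 fold changes were at most 0.05 in size in all comparisons. GRSF1 was at 111.0 and 107.2 CPM in EV and at 97.7 and 109.0 in sgZNF507, with its low value in replicate 1 as for TFAM.

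Among the FASTK family, FASTKD3 (ENSG00000124279, chr5:7859272-7869150) was at 11.9 and 12.8 CPM in EV, 10.9 and 12.4 in sgZNF146 and 10.5 and 11.2 in sgZNF507. Both sgZNF507 libraries were below both EV libraries and overlapped sgZNF146. Its log2 fold change of -0.19 ± 0.12 in sgZNF507 was the lowest of the 36 and had an adjusted p of 1.00 in edgeR's quasi-likelihood test. FASTKD5, which takes part in the maturation of mRNAs that no tRNA flanks, was at 31.2 and 27.0 CPM in EV, 26.3 and 28.6 in sgZNF146 and 29.99 and 31.6 in sgZNF507. The disruptions did not overlap (log2 difference 0.17 ± 0.10, sgZNF507 higher), but EV spanned nearly the whole range of both. FASTKD2 was at 29.4 and 27.8 CPM in EV, 24.5 and 29.5 in sgZNF146 and 27.7 and 27.3 in sgZNF507, with a log2 fold change of -0.08 ± 0.10 in sgZNF146 that came from its replicate 1. FASTKD1 and TBRG4 had log2 fold changes between -0.08 and 0.05 in all comparisons.

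In polyadenylation and turnover, the poly(A) polymerase MTPAP, the deadenylase PDE12, the degradosome subunits PNPT1 and SUPV3L1 and the oligoribonuclease REXO2 had negative log2 fold changes in sgZNF507 in 5 of 5 cases, from -0.12 to -0.01. Over all genes tested 11236 of 22010 were negative in that comparison. None of the 5 passed the threshold, and MTPAP, PDE12 and PNPT1 changed sign when single libraries were left out. REXO2 was at 23.0 and 25.2 CPM in EV, 23.96 and 23.2 in sgZNF146 and 22.6 and 21.7 in sgZNF507, with both sgZNF507 libraries lowest. In sgZNF146 the 5 genes lay between -0.05 and 0.02. MTPAP shares 1627 bases of exon with genes on its own strand, so that its count may hold reads of those.

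Of the 6 translation genes, the initiation factor MTIF3 (ENSG00000122033, chr13:28009780-28024728) was the 1 gene whose libraries stood on opposite sides of EV in the 2 disruptions. It was at 13.2 and 14.2 CPM in EV, 15.6 and 15.7 in sgZNF146 and 13.1 and 13.0 in sgZNF507. No pair of groups overlapped, but EV replicate 1 lay just above sgZNF507, and the EV libraries differed from each other by more than EV replicate 1 differed from either sgZNF507 library. The log2 fold change was 0.19 ± 0.11 (95% interval -0.04 to 0.42) in sgZNF146, the highest of the 36 there, -0.07 ± 0.11 in sgZNF507 and -0.26 ± 0.11 (-0.49 to -0.03) between the disruptions, the lowest of the 36. The adjusted p of that difference was 1.00 in edgeR's quasi-likelihood test and 0.344 with the replicate block. The exons of MTIF3 overlap those of GTF3A on the other strand by 181 bases.

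TUFM (ENSG00000178952, chr16:28853732-28857669), with the most counts, was at 339.7 and 344.5 CPM in EV, 331.7 and 326.4 in sgZNF146 and 354.9 and 332.2 in sgZNF507. Both sgZNF146 libraries were below EV by a log2 fold change of only -0.06 ± 0.06. GFM1, a translocation factor, was at 43.1 and 46.4 CPM in EV and 37.8 and 43.8 in sgZNF507 (log2 fold change -0.13 ± 0.09), again with the low value in replicate 1. TACO1, which activates translation of the mRNA of a cytochrome c oxidase subunit, and the factors TSFM and MTIF2 had log2 fold changes between -0.08 and 0.01 in all comparisons. TSFM shares 2160 bases of exon with a gene on its own strand.

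Seen by library, 207 of the 216 values of the 36 genes lay within 0.2 of the EV mean on the log2 scale, and the whole range was -0.34 to 0.19. The other 9 values were all lower, and 6 of them were in sgZNF507 replicate 1 (TFAM, TFB2M, MTERF4, FASTKD3, GFM1 and MTIF2), 2 in sgZNF146 replicate 1 and 1 in sgZNF146 replicate 2. The EV values are set against a mean of the same libraries, which draws them towards it. They are therefore not comparable in this count with those of the disruptions. Without sgZNF507 replicate 1 the median log2 fold change of the 36 against EV was -0.01 in place of -0.05. The range of the 3 group means had a median of 0.08 over the genes, and the largest difference between replicates a median of 0.14. Over all genes tested these medians were 0.14 and 0.24. The range exceeded the difference in 3 of the 36 genes (8.33%, against 22.8% of all genes tested). In sgZNF507 replicate 2 was above replicate 1 in 21 of the 36 genes and the median absolute difference was 0.11, against 0.08 in EV and 0.06 in sgZNF146. A fall in the RNA per cell and a smaller share of cells with that RNA cannot be told apart in these bulk libraries.

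**Figure D4:**
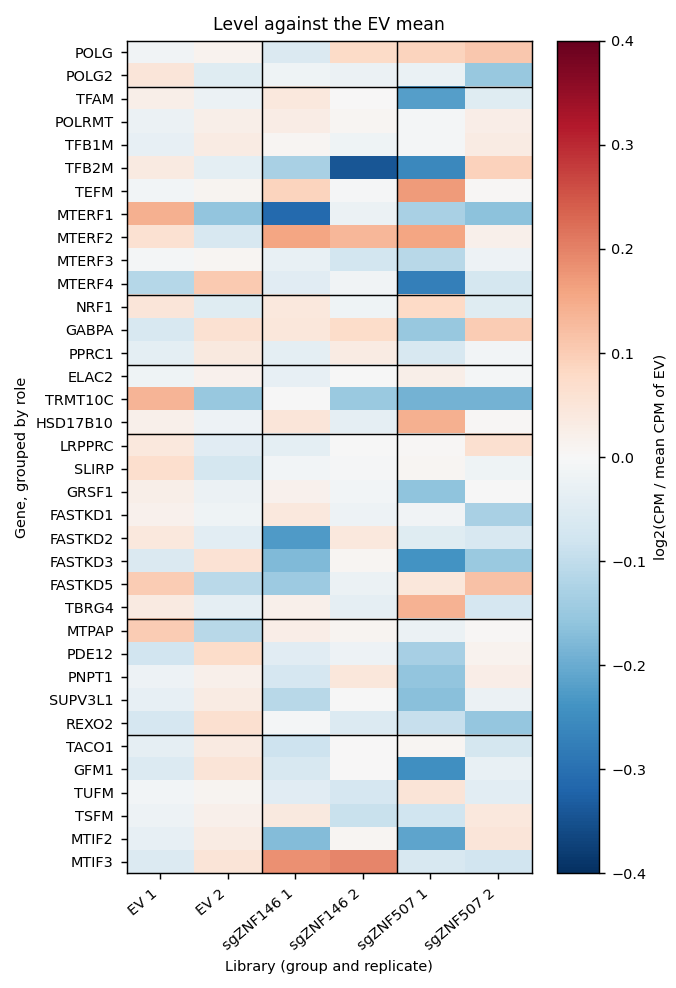
Log2 ratio of each gene's CPM in each library to its mean CPM in EV, with genes grouped by role and colours from blue (lower) to red (higher), on a scale from -0.4 to 0.4. Values span -0.34 to 0.19, the lowest for TFB2M in sgZNF146 replicate 2, and 6 of the 9 values below -0.2 are in the column of sgZNF507 replicate 1.

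Further nuclear genes of the same system gave 1 call. Of 75 listed factors of mtDNA maintenance, RNA modification, aminoacyl-tRNA formation, translation and regulation, GATB was called higher in sgZNF507 and none lower (1 of 75, beside 0.182% of all genes), and the median over the list was -0.00 on the log2 scale. GATB (ENSG00000059691), a subunit of the amidotransferase that completes mitochondrial glutaminyl-tRNA, was at 52.0 and 56.3 CPM in EV, 58.2 and 56.0 in sgZNF146 and 92.1 and 98.5 in sgZNF507. Both sgZNF507 libraries were above all others, by a log2 fold change of 0.82 ± 0.07 against EV and 0.74 ± 0.07 against sgZNF146, with adjusted p of 0.000282 and 0.000728 in edgeR's quasi-likelihood test. The transcription factor YY1 passed only with the replicate block in edgeR, not with that in DESeq2, with sgZNF507 lower by -0.21 on the log2 scale than EV and than sgZNF146 and adjusted p of 0.0405 and 0.0389 in edgeR's quasi-likelihood test. In sgZNF146 against EV 0 of the 75 were called. Of the 76 mitochondrial ribosomal protein genes 0 passed the threshold in any comparison, and the medians were -0.02 for sgZNF507 and 0.00 for sgZNF146 on the log2 scale (2 of the 76 had an unadjusted p under 0.05 in each, beside 3.39% and 2.43% of all genes, and DESeq2 called 0).

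The mRNAs that this machinery makes stood lower in both sgZNF507 libraries, by more than the sum of the 36 genes. The 13 mRNAs of the mitochondrial genome summed to 26103 and 28360 CPM in EV, 27012 and 25225 in sgZNF146 and 21892 and 22813 in sgZNF507, so that both sgZNF507 libraries were below all others. The 36 nuclear genes summed to 2707.8 and 2714.4, 2662.5 and 2705.7, and 2672.0 and 2704.6 CPM in the same order. Both libraries of each disruption were thus slightly below EV, and the disruptions overlapped each other. The sum is weighted towards abundant genes, as mean CPM in EV was 342.1 for TUFM, 102.1 for TFAM and 5.09 for TFB2M. A change in a gene of low count would barely move it. Fold changes of all 13 mRNAs against EV were negative in sgZNF507, from -0.62 (MT-ND6) to -0.19 (MT-CO3) on the log2 scale, around a median of -0.31. None of the 13 passed the threshold in edgeR as fitted for the other results, where 13 had an unadjusted p under 0.05, beside 3.39% of all genes. In other fits 11 were called with the replicate block in edgeR, beside 0.55% of all genes, and 7 with that in DESeq2. There were 12 without a filter on low counts, and 3 and 6 by DESeq2 on 6 and 4 libraries. For fits other than the edgeR block the share of all genes called is not given here. In sgZNF507 against EV the 95% intervals of 29 of the 36 nuclear genes lay wholly above -0.31. Those of TFB2M, MTERF1, MTERF4, TRMT10C, FASTKD3, REXO2 and GFM1 did not. Here -0.31 was taken as a fixed value, without the spread of the mRNAs. A difference between the nuclear genes and the mRNAs was not tested. In sgZNF146 the median of the mRNAs was -0.02.

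Mitochondrial ribosomal RNA differed between libraries far more, at 2704.0 and 2878.0 CPM in EV, 261.3 and 316.2 in sgZNF146 and 1653.0 and 101.3 in sgZNF507. Since ribosomal RNA was depleted in the libraries and ribosomal reads were removed before counting, these values describe what was left, and their part in the mRNA values was not tested. Library scaling without the genes of the mitochondrial genome left the median of the 36 nuclear genes at -0.05 in sgZNF507 and at -0.02 in sgZNF146.

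**Figure D5:**
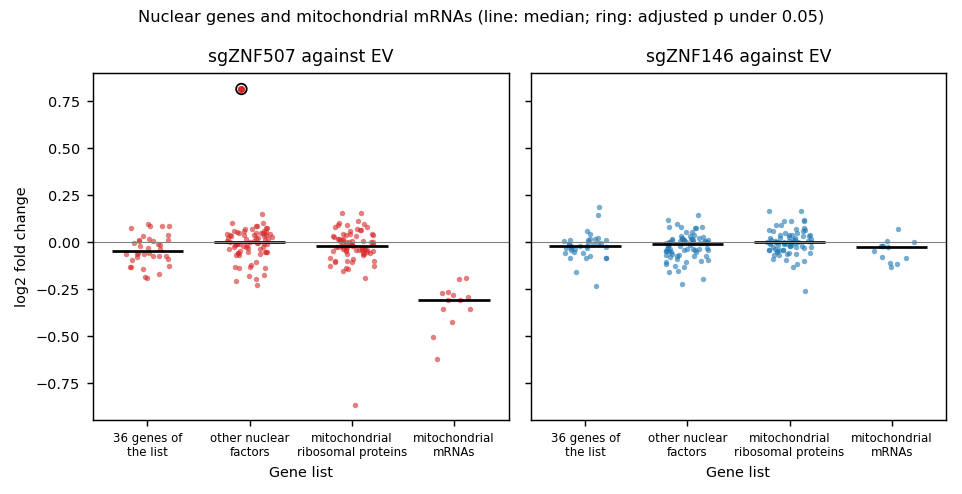
Log2 fold change of each gene of 4 lists (the 36 nuclear genes, 75 other nuclear factors, 76 mitochondrial ribosomal protein genes and 13 mitochondrial mRNAs) in sgZNF507 (left) and sgZNF146 (right) against EV, with black lines at the medians and a ring around the gene called, GATB at 0.82. The median of the mRNAs is -0.31 in sgZNF507, while the other 3 lists have medians between -0.05 and 0.00 in both panels, and the lowest point of the ribosomal protein list is MRPL30 at -0.86, which did not pass the threshold.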

How the data were processed

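The authors clipped reads, discarded ribosomal ones using Bowtie, aligned the rest to hg19 with TopHat2 (first-strand library) and counted them per Ensembl gene with featureCounts. Whether counting used strand is not given in the sources used here, and 18 of the 36 genes share exon bases with a neighbour. The deposited table gives counts as whole numbers, unnormalized and unpooled. Duplicates were not removed by molecular identifiers.

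Symbols and coordinates came from GENCODE v44 on GRCh37, which matched 96.1% of identifiers. Genes were filtered with filterByExpr (22010 kept), scaled by TMM and fitted with glmQLFit in edgeR 4.0.16 (R 4.3.3) over all 6 libraries (common dispersion 0.0052, prior degrees of freedom 9.51). Benjamini-Hochberg adjustment covered every gene tested, and calls needed an adjusted p under 0.05. Standard errors are approximate, as they were derived from the F statistic, and intervals are 95% intervals. DESeq2 1.42.0, other scalings and filters, a replicate block and leaving out each library were alternatives. The replicate numbers come from the labels. Deviations of replicate 1 from its group mean, as log2(CPM + 0.5), correlated between groups over 22010 genes at 0.191, 0.242 and 0.215. The numbers were therefore taken as pairs in the replicate block. The main fit, with its standard errors and intervals, leaves this pairing out. Replicates differed beyond counting noise (chi-square per degree of freedom 6.85 to 10.3). P-values measure the spread between these libraries. The steps were tested on simulated data.

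The members, the other gene lists and the tests were chosen with earlier results of these data known. Genes named in full are those past the threshold, the 3 with the largest log2 fold change in each direction per comparison, and TFAM, POLRMT, TFB1M, TFB2M and TEFM. Other members were described to account for all 36.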

Additional observations from a re-analysis of the deposited data

Results flagged for a closer look

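No group had enough libraries for a check of single outlying libraries. Effects of both disruptions against EV differed for GATB, with a log2 fold change in sgZNF507 exceeding that in sgZNF146 by 0.74 (adjusted p of 0.000728 in edgeR's quasi-likelihood test, higher in 2 of 2 libraries), and for ZNF507, the gene targeted in sgZNF507, by -0.59 (lower in 2 of 2 libraries). MTIF3 was singled out because both sgZNF146 libraries lay above EV and both sgZNF507 libraries below it. The difference between its effects, -0.26 on the log2 scale, was tested and did not pass the threshold (adjusted p of 1.00 in edgeR's quasi-likelihood test, 0.344 with the replicate block).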

How the results depend on the processing

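None of the 36 genes was called in any of the 3 comparisons under any of the 16 alternatives. With the replicate block the smallest adjusted p over the 36 was 0.474, 0.957 and 0.304 in the order sgZNF507 against EV, sgZNF146 against EV and sgZNF507 against sgZNF146, and among the gene lists and single genes reported the block changed no call beyond those of YY1 and of the mitochondrial genome. Over all genes it raised the calls from 40 to 121, from 0 to 33 and from 38 to 196. The median log2 fold change of the 36 was -0.0463, -0.0181 and -0.0094, and over single left-out libraries it ranged from -0.0463 to -0.0146, from -0.025 to -0.0038 and from -0.0334 to -0.0048. It came to -0.0146 without sgZNF507 replicate 1 in the first comparison, and to -0.0038 without EV replicate 1 and -0.0061 without sgZNF146 replicate 1 in the second. In the third it was -0.0334 without sgZNF146 replicate 1 and -0.0002 without a filter. Of the 75 other nuclear factors the edgeR block called 2 in place of 1 in both comparisons with sgZNF507, and single left-out libraries 1.

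Calls in the mitochondrial genome, 0 as reported in each comparison, moved most. Against EV, sgZNF507 gave 17 without a filter, 16 and 8 with the block in edgeR and DESeq2, and 3 and 7 with DESeq2 on 6 and 4 libraries, and 0 to 5 over left-out libraries (5 without sgZNF507 replicate 1, 4 without its replicate 2). For sgZNF146 there were 3 without a filter, with the edgeR block, and with edgeR or DESeq2 on 4 libraries, and 0 to 3 over left-out libraries (3 without either sgZNF507 library). Between the disruptions there were 11 without a filter, 8 and 7 with the block, 3 and 2 with DESeq2 on 6 and 4 libraries, and 0 to 5 over left-out libraries (5 without sgZNF507 replicate 1, 3 without its replicate 2). Over all genes the edgeR block called 0.55%, 0.15% and 0.891% in the same order of comparisons. For the other fits the share of all genes called is not given here, and the cause of these shifts was not tested.

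Over single left-out libraries 18, 28 and 21 of the 36 genes changed sign in the 3 comparisons, with 0 calls, as their log2 fold changes were near 0. For the genes that the naming rule picks in a comparison, the sign changes were as follows. In sgZNF507 against EV, POLRMT ranged from -0.0089 to 0.0293 and TFB1M from -0.0159 to 0.0424 (both lowest without EV replicate 1), and TFB2M from -0.2461 to 0.0902 (highest without sgZNF507 replicate 1). In sgZNF146 against EV, FASTKD2 ranged from -0.2264 to 0.0436, TEFM from -0.0062 to 0.0878, GABPA from -0.0024 to 0.1191, POLRMT from -0.0046 to 0.0363, TFAM from -0.0049 to 0.0448 and TFB1M from -0.0376 to 0.0235. Between the disruptions, TFB2M ranged from -0.0146 to 0.3211, TEFM from -0.039 to 0.1393 and POLRMT from -0.0175 to 0.0058, and POLRMT was at 0.0003 without a filter. With the sign kept, MTERF2 against EV ranged from 0.02 to 0.17 in sgZNF507 and from 0.08 to 0.21 in sgZNF146, MTERF1 from -0.31 to -0.00 and TFB2M from -0.34 to -0.13 in sgZNF146, and POLG from 0.03 to 0.16 between the disruptions.

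Depth limits precision most for TFB2M, at 98 to 157 counts a library.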
